A study of Mus musculus with 4 samples.

Results

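GCmat2 is the smallest cluster of dentate granule cells in a single-nucleus study of adult neurogenesis, and its members were taken as the nuclei that carry this name in the cluster column of the table of expression values. They were 209 of 14367 nuclei. The w4 library held 60 of them among 3831 nuclei, which is 1.57% (exact Clopper-Pearson 95% interval 1.20 to 2.01), and the w8 library held 149 among 3426 nuclei, which is 4.35% (3.69 to 5.09). The w1 library held 0 of 2867 nuclei, which allows a share of up to 0.105%, and the w2 library 0 of 4243, which allows up to 0.0707%. Each library was 1 pool of left dentate gyri from 4 male and female mice with an inducible Cre and the CAGfloxStop-Sun1/sfGFP allele on a C57Bl/6J background, given tamoxifen at 6 to 8 weeks of age and killed 1, 2, 4 or 8 weeks later. Nuclei were sorted for the Sun1-sfGFP nuclear envelope tag and counted with the 10x 3′ chemistry. Every group carried the same alleles and the same tamoxifen, and no group lacked either. The tag follows Cre activity at the time of tamoxifen, so that nuclei are labelled through the history of their progenitors, whatever their state when sorted. With 1 pool for each week and no second pool to set beside it, nothing was tested between weeks.

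Neuronal firing changes transcription in waves. Rapid immediate-early genes such as Fos, Arc and Npas4 are transcribed within minutes and their transcripts are short-lived, while late-response genes, which encode secreted peptides, receptors, channels and synaptic proteins, follow over hours. In dentate granule cells both waves follow exposure to a new environment.

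Below, GCmat2 is set beside GCmat1, the main mature cluster, and GCyoung, the young neurons, of the same libraries. Levels are in CPM, the unique molecular identifiers (UMIs) of a gene scaled to a total of 1000000 UMIs over the same nuclei, with exact Poisson 95% intervals where given. All intervals here cover counting error only. GCmat2 held 1560254 UMIs in all, with a median of 7197.5 UMIs per nucleus in w4 and 7254 in w8, against 8613 and 8045 in GCmat1. A count of 0 in GCmat2 was taken to allow 3 UMIs, which is 6.63 CPM in w4 and 2.71 in w8, a lower limit than the upper end of the exact interval. None of the 209 nuclei shares its barcode with another library.

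Of the 10 granule cell markers listed, 6 were not called different from GCmat1 and 4 were lower, which are Dsp, Calb1 and Tdo2, with values below, and Bcl11b, a transcription factor of maturing granule cells, at 164 and 172 CPM against 347 and 279, a call lost without w4. Prox1, the transcription factor that specifies granule cells, stood at 374 CPM in GCmat2 and 370 in GCmat1 of w4, and at 286 and 314 in w8. Slc17a7, the vesicular glutamate transporter, stood at 166 and 159 in w4 and at 165 and 161 in w8. Defining markers of other cells were at or near 0: Drd2 of mossy cells, Gad2, Slc32a1, Sst, Pvalb and Vip of interneurons, Mog of oligodendrocytes, and Csf1r of microglia had no UMI in any GCmat2 nucleus. The 8 mossy cell markers summed to 11.1 CPM in w4 and 20.8 in w8, against 16.9 and 19.6 in GCmat1. The interneuron markers summed to 674 and 1039.9 against 2025 and 2741, nearly all of it Adarb2, which was called lower. The astrocyte markers summed to 237 and 284 against 172 and 182, with Gja1 at 0, Slc1a2 called higher but not with either library left out, and Slc1a3 called lower but not without w8. The oligodendrocyte markers summed to 369 and 435 against 363 and 342. The CA3 markers summed to 50.8 and 25.3 against 51.6 and 77.9, the microglia markers to 26.5 and 35.2 against 48.5 and 56.5, and the CA1 or subiculum markers to 4.42 and 5.42 against 9.98 and 7.03. Endothelial or mural markers summed to 8.84 and 0, and Cajal-Retzius markers to 4.42 and 1.81. The part of RNA from other cells in the results was not tested.

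The markers of GCmat2 were the genes for Sorcs3, Nrxn3, Kcnip3, Acvr1c, Bdnf and Zfp804a, and all 6 were higher in GCmat2 than in either neighbour in both libraries. The deposited clusters were drawn on these same expression values, so each level is a description of what the cluster is and the differences are no evidence for it. In the mm10 annotation (GENCODE M21) the whole genes lie at chr19:48206025-48805505 (Sorcs3, plus strand), chr12:88722876-90334935 (Nrxn3, plus) and, on chromosome 2, at chr2:127456498-127522094 (Kcnip3, minus), chr2:58267453-58357895 (Acvr1c, minus), chr2:109674700-109727007 (Bdnf, plus) and chr2:82053222-82259879 (Zfp804a, plus). Sorcs3, a sorting receptor of the sortilin family, had the most marked level, with 758 CPM (680 to 843) in w4 and 900 (845 to 958) in w8. In GCmat1 it stood at 17.5 (13.4 to 22.4) and 27.2 (25.2 to 29.3), and in GCyoung at 6.90 and 4.88. No interval of GCmat2 overlapped one of GCmat1 or GCyoung. Nrxn3, a presynaptic adhesion protein, stood at 2904 in w4 and 4336 in w8, against 526 and 736 in GCmat1 and 220 and 235 in GCyoung. Kcnip3, a calcium sensor that binds Kv4 channels and acts on transcription as DREAM, stood at 265 and 307, against 52.4 and 99.5 in GCmat1 and 28.8 and 29.3 in GCyoung. For these 3 genes the order was GCyoung, GCmat1, GCmat2 in both weeks, with no overlap between intervals. Acvr1c, a type I receptor of the activin family, stood at 153 (119 to 193) in w4 and 133 (112 to 156) in w8, against 37.2 and 44.4 in GCmat1 and 60.04 and 48.1 in GCyoung.

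Bdnf, a neurotrophin, was higher in GCmat2 than in GCmat1 and GCyoung. It stood at 248 (204 to 298) in GCmat2 of w4 and 186 (161 to 213) of w8. In GCmat1 it stood at 94.8 (85.1 to 105) and 69.6 (66.4 to 72.9), and in GCyoung at 116 (111 to 121) and 88.5 (73.8 to 105). Over all libraries 51.5% of GCyoung nuclei and 39.2% of GCmat1 nuclei had a Bdnf UMI, beside 68.9% in GCmat2. Among NB1 neuroblasts, at a median of 4057.5 UMIs per nucleus, the share was 4.03% and the level 11.7, no more than in radial glia-like cells (4.90% and 14.3, median 4091 UMIs) or pericytes (5% and 12.6, median 5108 UMIs). Zfp804a, a zinc finger protein gene, stood at 769 and 831 in GCmat2, against 357 and 395 in GCmat1 and 352 and 408 in GCyoung.

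**Figure D1:**
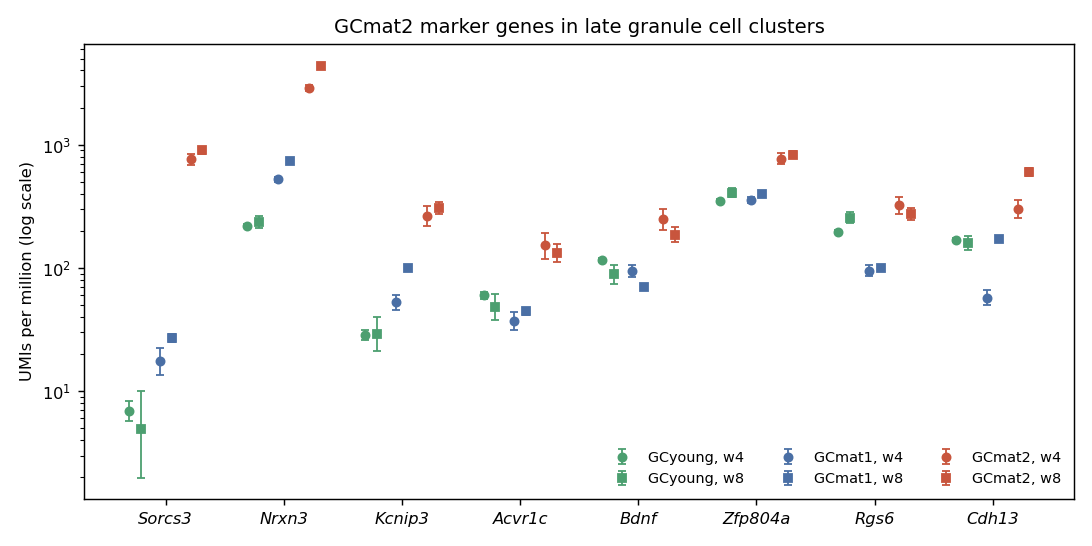
Level of 8 genes in CPM (log axis) in GCyoung, GCmat1 and GCmat2 of the w4 (circles) and w8 (squares) libraries, 1 pool each. Bars are exact Poisson 95% intervals, which cover counting error only. The 2 GCmat2 points lie above all others for every gene shown, from 758 and 900 for Sorcs3 to 323 and 274 for Rgs6, where GCyoung of w8 reaches 255.

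The level of a marker alone does not say whether the same nuclei carried all of them. Counted as deposited, 70% of GCmat2 nuclei in w4 and 65.1% in w8 had a UMI of 5 or 6 of the 6 markers. The share was 6.20% and 9.29% in GCmat1 and 2.43% and 1.06% in GCyoung. As GCmat1 is larger, such nuclei numbered 25 in GCmat1 and 42 in GCmat2 of w4, and 272 and 97 in w8. With each nucleus thinned to 2000 UMIs the share in GCmat2 was 16.7% (8.29 to 28.5) in w4 and 15.4% (10.04 to 22.3) in w8. In GCmat1 it was then 0.993% and 0.512%. No nucleus of these clusters in w4 or w8 was shallower than that depth. A Sorcs3 UMI was found in 75% of GCmat2 nuclei of w4 and 87.2% of w8, so that 15 of the 60 and 19 of the 149 had none. In w8, 148 GCmat1 nuclei had at least 2 Sorcs3 UMIs. In these, Nrxn3 stood at 3205 CPM, Kcnip3 at 232, Acvr1c at 120, Bdnf at 176 and Zfp804a at 703. GCmat2 of w8 had 4336, 307, 133, 186 and 831. Part of GCmat1, picked here by Sorcs3, thus had levels of these 5 markers nearer to GCmat2 than to GCmat1 as a whole. Beyond the markers, Rgs6 stood at 223 in these nuclei, against 274 in GCmat2 of w8. Cdh13 stood at 282 (255 to 311), against 600 (556 to 648). Dsp and Calb1, which were lower in GCmat2, were not read in these nuclei. In GCimm2, immature neurons with a median of 6979 UMIs, the share with a Sorcs3 UMI was 1.63%.

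**Figure D2:**
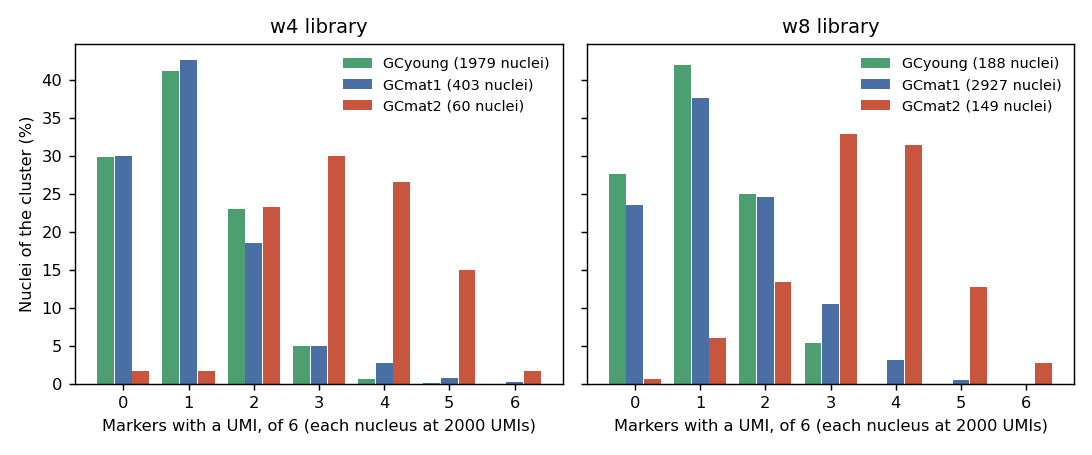
Share of the nuclei of each cluster (vertical axis, percent) by how many of the 6 GCmat2 markers had a UMI (horizontal axis), with each nucleus thinned to 2000 UMIs, in w4 (left) and w8 (right). Most GCyoung and GCmat1 nuclei had 0 to 2 markers, while GCmat2 nuclei peaked at 3 and 4, and 16.7% of them in w4 and 15.4% in w8 had 5 or 6.

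Outside the granule cell lineage, 4 of the genes that stand out in GCmat2 were also high in the oligodendrocyte precursor cluster (131 nuclei). Sorcs3 stood there at 723 CPM, Nrxn3 at 3395, Kcnip3 at 502 and Cdh13 at 822. Acvr1c and Bdnf did not share this, with 8.89 and 5.92. In GCmat2, Pdgfra, Cspg4 and Olig2, which define precursors, had no UMI, and Olig1 had 1. The exception was Lhfpl3, a tetraspan membrane protein gene of the precursor list. It stood at 68.5 in w4 and 288 in w8, against 30.2 and 20.2 in GCmat1, and its fitted log2 difference of 2.96 ± 0.31 (SE) fell to 1.15, no longer called, without the w8 library.

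The UMIs of each cluster in each library were added up, and the 29 sums were fitted together with edgeR's quasi-likelihood test, with library as a term. A gene was called where its level changed by 1.5-fold or more and its p, adjusted after Benjamini and Hochberg, was 0.05 or lower. The comparison with GCmat1 asks what sets the 2 mature clusters apart, and that with GCyoung what sets GCmat2 apart from younger neurons. Of 13513 genes tested against GCmat1, 986 were called, which is 7.3% of all genes, with 407 higher (3.01%) and 579 lower (4.28%) in GCmat2. Against GCyoung 563 were called, which is 4.17%, with 253 higher (1.87%) and 310 lower (2.29%). Because expression values defined the clusters, these calls describe size against the spread of the sums. Both comparisons use the same GCmat2 sums, so they are given side by side and not counted as 2 observations.

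The median log2 difference of all tested genes was -0.14 against GCmat1 and -0.15 against GCyoung, and other scalings moved it to -0.03 (RLE factors), -0.01 (DESeq2) and -0.01 (6 sums fitted alone) against GCmat1. The share of called genes that were higher against GCmat1 went from 41.3% to 51.1%, 56.4% and 48.7%, so which direction holds more calls depends on the scaling. Against GCyoung it went from 44.9% to 56.2%, 58.3% and 53.2%. Of the 407 genes called higher, 397 were above GCmat1 in both libraries, and of the 579 called lower, 577 were below it in both. The calls were made on the sums of these same libraries, so this agreement is largely built in. With the w4 library left out 567 genes were called against GCmat1 and with w8 left out 412, where GCmat2 has 1 sum that is taken to vary like the other clusters. GCmat2 nuclei were mostly female in w4 and male in w8, so that week and sex cannot be told apart.

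**Figure D3:**
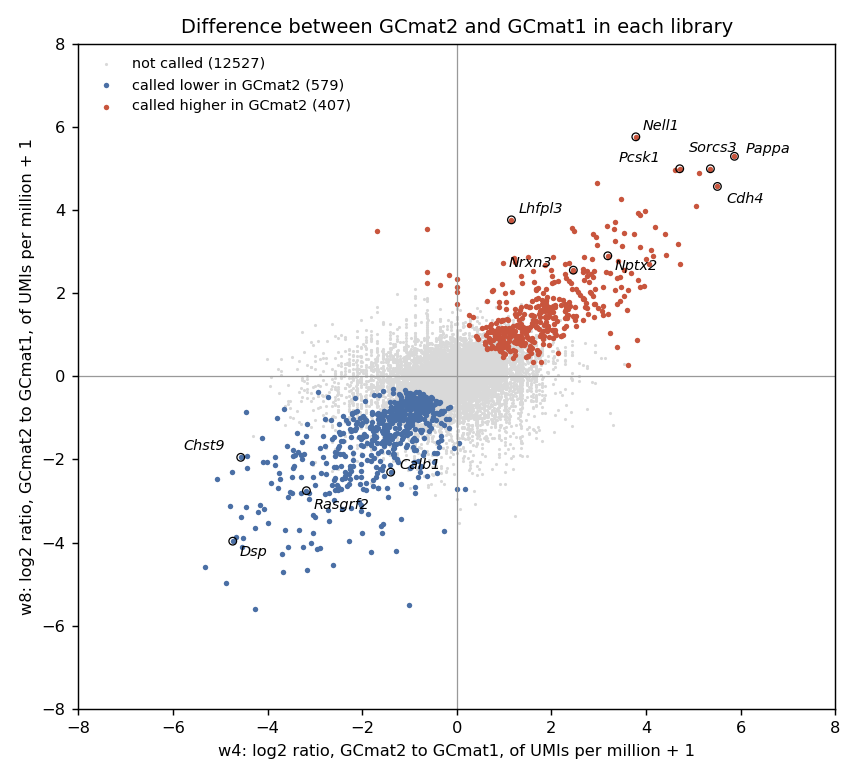
Difference between GCmat2 and GCmat1 in the w4 library (horizontal) and the w8 library (vertical), as the log2 ratio of CPM with 1 added, for 13513 genes. Red points are the 407 genes called higher, blue the 579 called lower and grey those not called. Of the coloured points, 397 and 577 lie on the same side of 0 in both libraries, which is largely built in, as both libraries entered the calls. Lhfpl3 lies far above the diagonal (w8) and Chst9 far left of it (w4).

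The fitted log2 differences of the markers against GCmat1 were 4.94 ± 0.24 (SE) for Sorcs3 (30.6-fold), 2.48 ± 0.23 for Nrxn3 (5.57-fold) and 1.75 ± 0.20 for Kcnip3 (3.36-fold). These 3 were called in each of the 11 alternatives fitted for single genes. Against GCyoung they were 6.82 ± 0.29, 3.91 ± 0.28 and 3.17 ± 0.23. Acvr1c differed by 1.51 ± 0.27 from GCmat1, Bdnf by 1.21 ± 0.22 (2.32-fold) and Zfp804a by 0.97 ± 0.27. The call of Acvr1c was lost with DESeq2, that of Bdnf with DESeq2 and without a library term, and that of Zfp804a also without w8 and among male nuclei alone.

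Promoters were read for letters that factors of activity-dependent transcription bind. RefSeq windows of 300 bases, 250 before to 50 after each transcript start (GRCm38.p6), were found for 9752 of the tested genes. They were searched on both strands for TGACGTCA, the cAMP response element (CRE), its core TGACG, and TGANTCA, the AP-1 site, where N is any base. Sites called NBRE (AAAGGTCA), EGR (GCGTGGGCG), SRE and MEF2 were searched as well. One window each of Bdnf, Kcnip3 and Pcsk1, the last described further on, is shown because these late-response genes held a match, with the matched bases in capitals.

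Pcsk1 chr13:75089607-75089906 (+): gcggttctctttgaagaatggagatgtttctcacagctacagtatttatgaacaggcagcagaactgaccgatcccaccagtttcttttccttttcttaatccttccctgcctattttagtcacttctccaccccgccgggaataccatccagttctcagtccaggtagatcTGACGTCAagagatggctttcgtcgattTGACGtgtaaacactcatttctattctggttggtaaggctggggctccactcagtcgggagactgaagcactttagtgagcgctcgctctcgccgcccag
Bdnf chr2:109692186-109692485 (+): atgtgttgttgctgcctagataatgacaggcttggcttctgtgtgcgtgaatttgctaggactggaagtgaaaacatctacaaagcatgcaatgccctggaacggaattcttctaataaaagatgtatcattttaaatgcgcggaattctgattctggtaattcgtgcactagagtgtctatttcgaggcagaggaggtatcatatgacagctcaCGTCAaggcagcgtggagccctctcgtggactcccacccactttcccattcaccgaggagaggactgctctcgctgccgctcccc
Kcnip3 chr2:127522045-127522344 (-): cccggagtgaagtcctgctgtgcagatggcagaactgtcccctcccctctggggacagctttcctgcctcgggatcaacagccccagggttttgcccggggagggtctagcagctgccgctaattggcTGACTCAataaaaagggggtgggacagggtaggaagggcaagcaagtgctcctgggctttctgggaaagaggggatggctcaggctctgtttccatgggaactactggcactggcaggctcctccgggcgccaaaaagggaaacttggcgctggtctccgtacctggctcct

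The Pcsk1 window held 1 full CRE, whose 2 strands each count as a core, and 1 further core. The Bdnf window shown, 1 of 7 for the gene, held 1 core on the reverse strand, and the Kcnip3 window, 1 of 3, held 1 AP-1 site. Not shown are an AP-1 site in another Bdnf window, 1 in 1 of the 3 Nrxn3 windows, 1 in each of the 2 Mndal windows and a core in the Bcl2 window. Windows of Sorcs3, Acvr1c, Zfp804a and Rgs6 held none of these letters. Over 12622 windows of tested genes, 3.03% held the CRE, 30.2% the core and 4.80% the AP-1 site. Among 401 windows of genes called higher in GCmat2 against GCmat1 the shares were 1.75%, 25.7% and 6.23%, and among 542 windows of genes called lower 0.554%, 20.7% and 5.72%. A match is a run of letters and says nothing of binding.

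Rgs6 and Cdh13 are further genes tied to GCmat2. Rgs6, a regulator of G-protein signalling that is high in immature neurons, stood at 323 in w4 and 274 in w8, against 95.1 and 100 in GCmat1, a log2 difference of 1.58 ± 0.26. Against GCyoung, where it stood at 197 and 255, it was not called (0.35 ± 0.27). In GCimm1, the immature cluster, it reached 2472 over all libraries. Cdh13, a cadherin held by a lipid anchor, stood at 303 (254 to 358) in w4 and 600 (556 to 648) in w8 of GCmat2, against 57.4 and 172 in GCmat1. Ntng1, a netrin G adhesion protein gene, stood at 462 and 811 in GCmat2 and at 112 and 427 in GCmat1, and its call against GCmat1 (1.14 ± 0.24) was lost without w4 (0.79).

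The 12 largest increases over GCmat1 were ranked among called genes with the same direction in both libraries against both GCmat1 and GCyoung. That they also lie above GCyoung is thus built in. They were in genes at low levels in GCmat1, at most 27.2 CPM there (Sorcs3 in w8). Fam163a rose by 6.19 ± 0.49 on the log2 scale, from 1.11 and 0.434 CPM in GCmat1 to 50.8 and 44.2 in GCmat2. Its level in GCyoung was 26.4 and 13.2, and that difference was not called. Pappa, a protease that frees insulin-like growth factors from their binding proteins, stood at 106 and 124, against 0.832 and 2.17 in GCmat1 and 0.317 and 0 in GCyoung. It was thus close to absent in both neighbours, and had a UMI in 31.7% of GCmat2 nuclei of w4 and 43.0% of w8. Pcsk1, the prohormone convertase that cleaves proneuropeptides, stood at 90.6 and 58.7, against 2.50 and 0.869 in GCmat1 and 10.5 and 4.18 in GCyoung. Nell1, a secreted protein gene, stood at 108 and 154, against 6.93 and 1.86 in GCmat1 and 24.7 and 35.6 in GCyoung. Cdh4 (R-cadherin) stood at 95.0 and 111, against 1.11 and 3.71 in GCmat1. Bcl2, an inhibitor of apoptosis, stood at 102 and 70.4, against 5.55 and 3.55. Mndal is an interferon-inducible gene whose family holds near-identical copies, so that its count is uncertain. It stood at 81.8 and 78.5, against 1.39 and 1.66 in GCmat1 and 19.9 and 51.6 in GCyoung. Of these genes all calls held without either library. The remaining members of the 12 were Cdh23, Tnfaip8l3, Fbln2 and the lincRNA E530001K10Rik, with Sorcs3 itself. Cdh23, a cadherin of hair-cell tip links, stood at 97.3 in w4 and 29.8 in w8, and Fbln2, an extracellular matrix protein gene, at 15.5 and 59.6, the reverse order.

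The 12 largest decreases by fitted value, ranked by the same rule, had no UMI in any GCmat2 nucleus. The fitted change then rests on the prior count, so the order of fitted values is no order of size, and Dsp, described below, had 3 UMIs in GCmat2 and is not among the 12. A bound was computed by giving GCmat2 3 UMIs over both libraries, which is 1.92 CPM. Ackr3, a scavenging receptor for the chemokine CXCL12, stood at 22.2 and 16.3 in GCmat1 and was at least 8.86-fold lower in GCmat2. Tdo2, tryptophan dioxygenase, whose presence is a mark of granule cells, stood at 21.9 and 13.8 in GCmat1 and was at least 7.69-fold lower. Rbms1, an RNA-binding protein gene, was at least 9.08-fold lower, Laptm4b at least 8.14-fold, Itga7 (an integrin subunit for laminin) at least 7.73-fold and Npy2r, the neuropeptide Y receptor Y2, at least 6.04-fold. Cacng5, Fgf10, Gmnc, Moxd1, Card6 and Ctxn2 completed the 12, with bounds between 3.07-fold and 5.23-fold. Without w8 the calls of Rbms1, Laptm4b, Npy2r, Fgf10, Gmnc, Card6 and Ctxn2 were lost.

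Gene lists for pathways of the granule cell were then read one by one. They were drawn up with earlier results of these data known, so their counts describe GCmat2 and support nothing. Every count of called members below is to be read beside the shares among all tested genes, which were 3.01% higher and 4.28% lower against GCmat1 and 1.87% and 2.29% against GCyoung. Of 25 late activity-response genes tested, 12 were called higher and 0 lower against GCmat1, beside 3.01% and 4.28% of all genes, and 13 and 0 against GCyoung. The 12 higher than in GCmat1 include Sorcs3, which is itself a marker of the cluster. At an unadjusted p under 0.05 edgeR placed 14 higher and 0 lower than GCmat1, and DESeq2 called 8 and 0. The median log2 difference of the list was 0.75 against GCmat1, beside -0.14 over all genes. Nptx2, a neuronal pentraxin that gathers AMPA receptors, stood at 30.9 in w4 and 14.4 in w8, against 2.50 and 1.07 in GCmat1, a log2 difference of 3.48 ± 0.52. Vgf, a precursor of secreted peptides, stood at 19.9 and 10.8, against 3.05 and 0.790. Sv2c, a synaptic vesicle protein, stood at 159 and 225, against 42.4 and 62.4. Homer1, a scaffold of glutamate receptors, stood at 241 and 113, against 105 and 82.7. Baz1a, a chromatin remodelling subunit, and Rgs4, a regulator of G-protein signalling, were also higher, on 14 and 11 UMIs in GCmat2. Mapk4, an atypical MAP kinase gene of the list, went from a log2 difference of 1.34 to 0.61 without w4, where its call and that of Homer1 (0.41) were lost. Without w8 the calls of Vgf, Baz1a and Rgs4 were lost.

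The late list was not uniform. Inhba, an activin subunit, stood at 42.0 and 43.3 in GCmat2, against 31.9 and 39.9 in GCmat1 and 33.9 and 48.8 in GCyoung, and was not called (0.11 ± 0.28). Penk, which encodes enkephalin and is transcribed in active granule cells, was among the 7 listed genes under the filter on low counts.

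Of 31 rapid immediate-early genes in the files, 16 passed the filter on low counts. The list summed to 217 CPM in GCmat2 of w4 and 154 of w8, against 124 and 89.4 in GCmat1 and 140 and 105 in GCyoung. Some of its best known members had few UMIs. Fos had 1 UMI in w4 and 0 in w8, and Arc had 1 in each. Npas4 had 2 and 1. Over all libraries their levels were 0.641, 1.28 and 1.92 CPM in GCmat2, 0.137, 0.377 and 0.343 in GCmat1 and 0.693, 1.39 and 1.15 in GCyoung. The levels in GCmat2 rest on 1 to 3 UMIs. Junb stood at 8.84 in w4 and 3.61 in w8, against 5.27 and 3.87 in GCmat1. Of the 16, 3 were called higher against GCmat1 and 0 lower, beside 3.01% and 4.28% of all genes. The median log2 difference of the 16 was 0.65, beside -0.14 over all genes, and 12 of them lay above that median. Against GCyoung edgeR called 0, with 4 higher and 1 lower at an unadjusted p under 0.05 and 1 higher by DESeq2. The 3 were Egr1, with 9 and 10 UMIs (19.9 and 9.03 CPM, against 4.16 and 1.11), Fosl2 with 3 and 10, and Nr4a3 with 9 and 14. The count moved between 0 and 3 across other fits, with 2 by DESeq2 and 0 without a library term. All 3 calls were lost without w8, and that of Fosl2 also without w4. Their levels in GCyoung of w4 were 6.27, 1.65 and 10.3. The share of GCmat2 nuclei with an Egr1 UMI was 7.18% over both libraries.

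**Figure D4:**
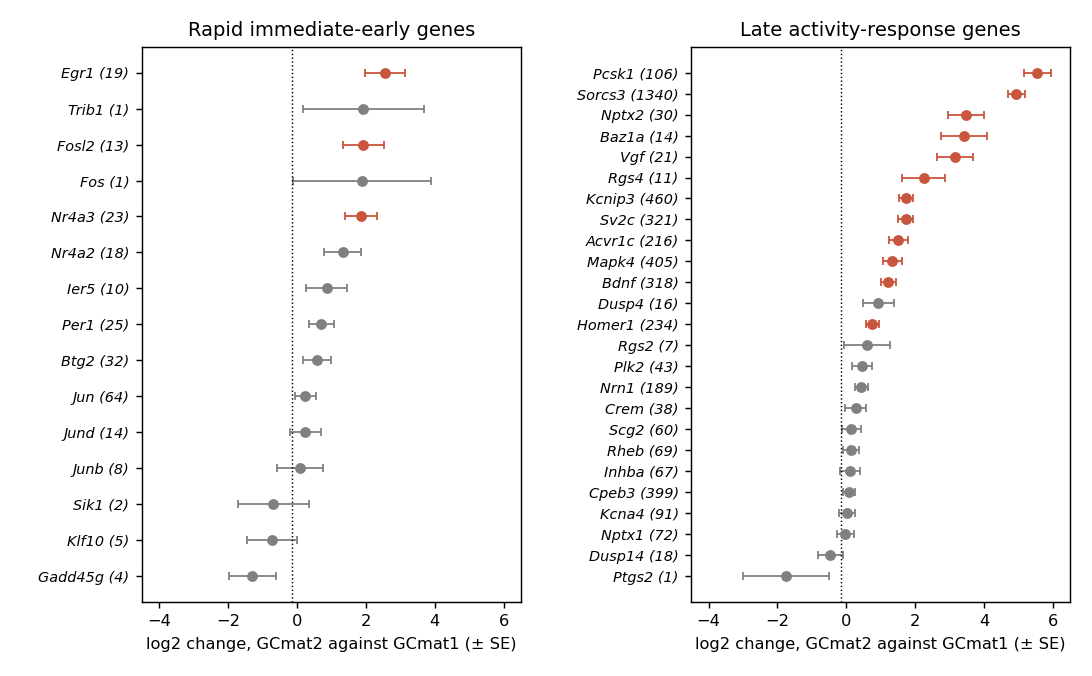
Fitted log2 difference between GCmat2 and GCmat1 with its SE for the tested rapid immediate-early genes (left) and late activity-response genes (right) that have a UMI in GCmat2, whose UMIs over both libraries stand beside each name. Red points were called higher, grey points were not called, and the dotted line is the median of all tested genes, -0.14. The called rapid genes rest on 13 to 23 UMIs, while Sorcs3 rests on 1340.

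Secreted peptides and the enzymes that process them were read next. Of 16 neuropeptide and secretory granule genes tested, 5 were higher and 0 lower against GCmat1 (Pcsk1, Vgf, Grp, Chgb and Pcsk2), beside 3.01% higher and 4.28% lower among all genes, and 4 and 0 against GCyoung, beside 1.87% and 2.29%. Grp, gastrin-releasing peptide, stood at 17.7 in w4 and 19.9 in w8, against 2.77 and 3.04 in GCmat1. Pcsk2, the second prohormone convertase, stood at 729 and 769, against 371 and 433. Chgb, a granin of dense-core vesicles, stood at 75.2 and 55.1, against 40.2 and 26.6, and its call, like that of Pcsk2, was lost when either library was left out. The call of Grp was lost without w8.

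In the neurotrophin and sortilin family 6 of 16 tested genes were higher and 2 lower than in GCmat1, beside 3.01% higher and 4.28% lower among all genes. The 6 include Sorcs3, itself a marker of the cluster, and Pcsk1, which was also counted in the lists above. Sorcs1 moved with its paralogue Sorcs3, with 17.7 and 34.3 in GCmat2 against 0.832 and 1.70 in GCmat1. Sorl1, another member of the sorting receptors, was lower, with 99.5 and 100 against 183 and 165. Shc3, an adaptor downstream of Trk receptors, stood at 139 and 113, against 24.7 and 18.7, a log2 difference of 2.48 ± 0.22. Ntf3, a second neurotrophin, went the other way from Bdnf, with 15.5 and 42.4 against 107 and 59.7, a log2 difference of -1.30 ± 0.30. Without w4 the calls of Ntf3 (-0.66) and Sorl1 were lost, and without w8 those of Sorcs1 and Sorl1.

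In the activin and TGF-beta pathway 1 receptor was higher and 1 lower. Of 25 tested genes, 2 were higher and 1 lower than in GCmat1, beside 3.01% higher and 4.28% lower among all genes, and 2 and 2 against GCyoung, beside 1.87% and 2.29%. The median of the list was -0.06, beside -0.14 over all genes. Acvr1c and Smad3, a transducer of these receptors, were the 2 higher, and Smad3 stood at 177 and 229, against 48.8 and 116. The call of Smad3 was lost with DESeq2, without a library term and among male nuclei alone, and that of Acvr1c with DESeq2. Acvr2a, a type II receptor for activins, stood at 46.4 and 60.5, against 159 and 170 in GCmat1 and 106 and 130 in GCyoung, a log2 difference of -1.59 ± 0.23 from GCmat1.

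Among 25 tested regulators of the MAP kinase pathway 4 were higher and 1 lower. Rasgrp1, an activator of Ras opened by diacylglycerol, stood at 68.5 and 116, against 16.4 and 18.8. Rasgrf2, an activator of Ras opened by calcium, stood at 22.1 and 25.3, against 208 and 176 in GCmat1 and 127 and 131 in GCyoung, a log2 difference of -3.08 ± 0.28. In the cAMP list 4 of 26 were higher and 2 lower. Adcy8, a calcium-stimulated adenylyl cyclase, stood at 223 and 381, against 22.7 and 66.6, a call lost with DESeq2. Adcy1, its calcium-stimulated relative, was lower, with 155 and 166 against 260.1 and 239, a call lost with DESeq2 and without w4. The call of Rasgrp1 was lost without w8. Pde10a, a phosphodiesterase, stood at 1998 and 1434, against 310 and 396.

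Of 30 activity-dependent transcription regulators tested, 2 were higher (Camk4 and Ppargc1a) and 2 lower (Bhlhe40 and Rfx3), and none of the 4 calls held without w8, nor any but that of Camk4 without w4. Adhesion genes went both ways. Of 23 cadherins tested 7 were higher and 4 lower against GCmat1, beside 3.01% higher and 4.28% lower among all genes, and 6 and 3 against GCyoung, beside 1.87% and 2.29%. Next to Cdh4 and Cdh13, Pcdh11x stood at 159 and 322, against 68.2 and 43.6, and Cdh10 at 610 and 490, against 164 and 179. Cdh8 stood at 579 and 592, against 1285 and 1056, and its lower call was lost when either library was left out. Of 28 neurexins, neuroligins and partners, 6 were higher and 1 lower. The 6 include Nrxn3, itself a marker of the cluster. Lrrc4c, the netrin G ligand 1 that binds Ntng1, stood at 765 and 962, against 384 and 490, a call lost without w4. The calls of Slitrk4 and Ntng1, also higher, were lost without w4 too, and that of Il1rapl2, the 1 lower, without w8.

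Channels and receptors split in both directions. Of 58 potassium channel genes tested, 9 were higher and 5 lower. Kcnd2 (Kv4.2), whose channels Kcnip3 binds, stood at 2518 and 2360.5, against 5833 and 5237 in GCmat1 and 4828 and 4805 in GCyoung, and its lower call was lost when either library was left out. Kcnip1, another Kv4 partner, stood at 44.2 and 28.0, against 1.11 and 2.80, and Kcnn2 and Kcnh7 were higher with log2 differences of 1.90 ± 0.27 and 1.93 ± 0.26. Of 11 sodium channel genes, 3 were lower and 1 higher. Scn3b, an auxiliary subunit, stood at 99.5 and 115, against 264 and 225. Of 22 voltage-gated calcium channel genes and their TARP relatives, 5 were lower and 1 higher. The call of Cacng3, the 1 higher, and that of Cacna1h, among the lower, were lost when either library was left out. Cacna1g, a T-type channel, had 1 UMI in GCmat2 of w4 and 0 of w8, against 20.0 and 10.1 CPM in GCmat1, a call lost without w8. Of 19 ionotropic glutamate receptor genes 3 were higher and 2 (Grin3a and Grik3) lower. Both lower calls were lost without w8, that of Grik3 also without w4, and that of Grik2, one of the 3 higher, with either library left out. Of 6 metabotropic glutamate receptor genes 1 (Grm3) was higher and 1 (Grm2) lower, both lost without w4 and that of Grm3 also without w8. Of 13 GABA receptor genes edgeR called 0 higher (0 also at an unadjusted p under 0.05 and by DESeq2) and 1, Gabrg3, lower, a call lost without either library. Among 16 tested stress and DNA damage genes edgeR called 0 in either direction, with 1 higher at an unadjusted p under 0.05, and DESeq2 called 0.

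**Figure D5:**
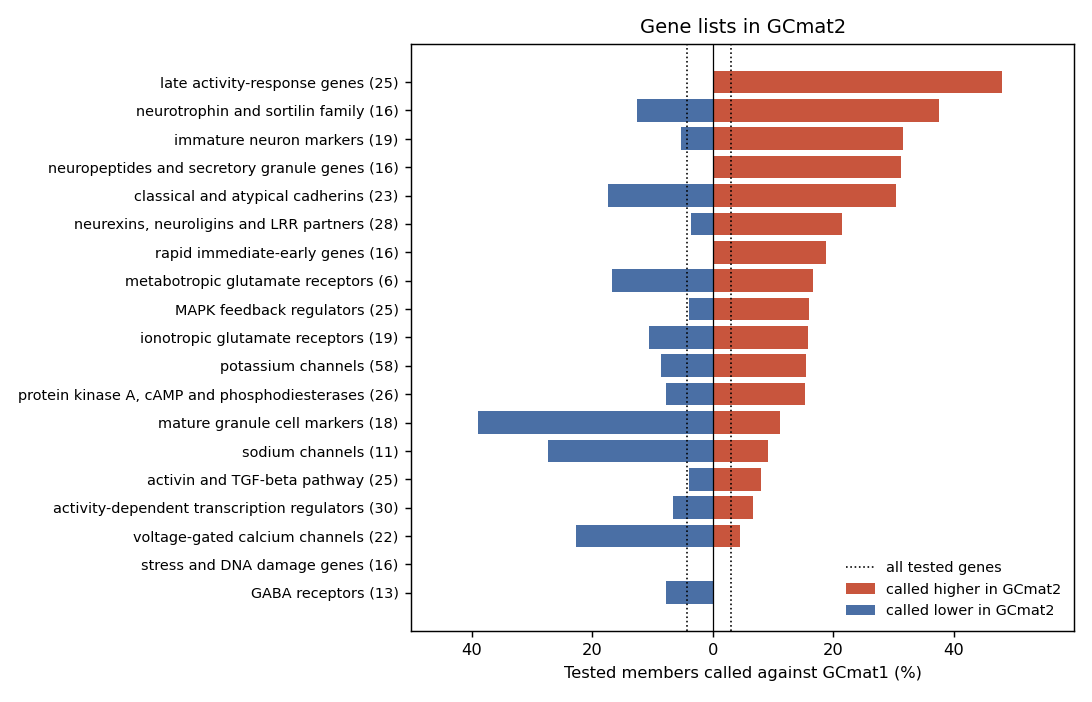
Percent of the tested members of each list (number beside its name) that were called higher (red, right) or lower (blue, left) in GCmat2 against GCmat1. Dotted lines are the shares among all tested genes, 3.01% higher and 4.28% lower. Of the 19 pathway lists drawn, the late activity-response list reaches furthest right, with 12 of 25, and the mature granule cell markers furthest left, with 7 of 18. The mature list holds genes that the study picked as GCmat1 markers in these nuclei, so its lower calls are in part built in.

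Of 18 markers of mature granule cells tested, 7 were lower and 2 higher than in GCmat1, beside 3.01% higher and 4.28% lower among all genes. Against GCyoung 2 were lower and 2 higher, beside 2.29% and 1.87%. The study names Chst9, Rapgef5, Inpp4b, Ntng1 and Car10, all of this list, as markers of GCmat1 in these same nuclei. A lower level of such genes in another cluster is thus in part built in, and the count is no independent measure of maturity. Chst9, a sulfotransferase, stood at 15.5 in w4 and 116 in w8, against 390 and 452 in GCmat1 and 112 and 129 in GCyoung. Rapgef5, an exchange factor for Rap GTPases, stood at 26.5 and 46.0, against 269 and 250 in GCmat1. Inpp4b, a phosphoinositide phosphatase, stood at 55.3 and 78.5, against 189 and 309. Calb1, the calcium buffer calbindin that granule cells gain as they mature, stood at 53.0 (34.0 to 78.9) and 23.5 (15.3 to 34.4), against 141 and 120 in GCmat1 and 115 and 86.4 in GCyoung, and was lower than both. Ntng1 and Car10 were the 2 higher, with Car10, a carbonic anhydrase relative, at 234 and 478 against 67.1 and 378. Both calls were lost without w4.

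Of 19 immature neuron markers, 6 were higher and 1 lower than in GCmat1, and 2 and 3 against GCyoung. The 6 were Rgs6, Nell1, Sema3e, Adamts18, Lin7a and Slc8a1. The study names Lin7a and Slc8a1 as genes that are down in GCmat1, so their direction against GCmat1 is built in and shows no immature trait. Sema3e, a semaphorin, stood at 276 and 167, against 25.5 and 31.3 in GCmat1 and 79.4 and 107 in GCyoung. Dcx, the classical marker, stood at 57.5 and 43.3, against 42.2 and 29.9 in GCmat1 and 81.1 and 72.5 in GCyoung, and was not called in either comparison, nor was Sox11. Robo1, an axon guidance receptor of the list, was lower than in both neighbours, against GCmat1 only with w8 in the fit. The call of Slc8a1 was lost when either library was left out.

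Some lower genes mark granule cells or their place along the hippocampus. Dsp, desmoplakin, a granule cell marker, had 1 UMI in w4 and 2 in w8, against 84.6 and 42.8 CPM in GCmat1 and 38.0 and 25.8 in GCyoung. Counted over single libraries, 41.7% and 25.2% of GCmat1 nuclei had a Dsp UMI, beside 1.67% and 1.34% in GCmat2. Lct, a dorsal marker, stood at 8.84 and 7.22, against 51.9 and 44.7, and Stra6, another, at 0 and 1.81, against 6.93 and 28.2. Both calls were lost without w8. Gsg1l, also a dorsal marker, was higher, with 95.0 and 168 against 21.1 and 65.7. Of the 3 ventral markers, Trhr was under the filter, and Grp and Nr2f2 were higher than in GCmat1, the latter at 8.84 and 9.03 against 1.66 and 2.80 and not called without either library. No GCmat2 nucleus has a pseudo-time in the deposited table, and neither have 220 GCmat1 nuclei. The study kept GCmat2, and GCmat1 nuclei with a strong signal of ventral genes, out of its trajectory. Its methods give another number for the latter, so these are not the same set as the 220. Without those 220 the comparison with GCmat1 called 994 genes, and 963 of the 986 were among them.

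The called genes were long. The median gene span was 94.8 kb for the 407 higher genes and 87.6 kb for the 579 lower ones, beside 25.5 kb for genes not called. Nuclear counts over introns grow with gene length, and the part of length in the calls was not tested.

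Sex genes had been removed before the clusters were drawn, so the cluster did not use them. The study had also set aside a group of mostly male w4 nuclei before its final clustering, so the w4 shares below are of what was left, and unclustered w4 nuclei with at least 2 Sorcs3 UMIs were 90.5% male. In w4, 7 of 60 GCmat2 nuclei were male by more UMIs of the 3 male than of the 2 female genes, which is 11.7% (4.82 to 22.6), beside 9.21% in GCmat1 and 15.6% in GCyoung. In w8, 121 were male and 8 female, with 20 not called, which is 93.8% male (88.1 to 97.3), beside 86.4% (85.1 to 87.7) in GCmat1 and 81.5% (74.8 to 87.1) in GCyoung. GCmat2 therefore held nuclei of both sexes in both weeks. How many of the mice gave GCmat2 nuclei was not analysed here.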

How the data were processed

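Nuclei of 4 libraries (w1, w2, w4, w8; 1 pool each, 17046 barcodes, library totals of kept nuclei 13227971 to 28595331 UMIs) were used. The authors counted UMIs with STARsolo 2.7.4a on mm10 (submitters' processing notes), and the deposited raw counts are whole UMIs per gene and nucleus. The authors also deposited log2 expression values, normalized with scran with 1 added, with a cluster and a pseudo-time for 14367 nuclei and 13353 symbols. They had removed doublets, low-quality nuclei, sex genes and a group of w4 nuclei before clustering. The log2 values served for cluster membership and 1 alternative.

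Counts were summed per cluster and library for sums of at least 10 nuclei, which gave 29 sums. They were fitted with edgeR 4.0.16 (R 4.3.3, limma 3.58.1) by quasi-likelihood, with TMM factors, filterByExpr and terms for cluster and library, on 16 residual degrees of freedom, and p-values were adjusted over all 13513 genes by Benjamini-Hochberg. A call needed a fold change of 1.5 and an adjusted p of 0.05. Sums vary in their own way, which says nothing of how mice vary. DESeq2 1.42.0, Python 3.11.15, numpy 2.4.6, scipy 1.17.1, pandas 2.3.3 and matplotlib 3.10.9 were also used. On simulated counts for GCmat2 against GCmat1 (13513 genes), 36 of 96 genes changed 2-fold, 62 of 97 changed 4-fold and 3 of 12966 unchanged genes were called, so a gene not called may still differ.

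Alternatives were no library term, 6 sums alone, RLE factors, DESeq2, no filter, nuclei thinned to 2000 UMIs, male or female nuclei alone, GCmat1 nuclei with a pseudo-time, a fold of 2, the log2 values, and each library left out. Named genes were the markers and genes the study ties to GCmat2, the 12 largest called changes each way, and up to 4 called members of each of 19 pathway and 14 cell type lists. The 12 were ranked among genes with at least 50 UMIs and the same direction in w4 and in w8 against both GCmat1 and GCyoung. Another 20 genes were named after their values were seen (among them Prox1, Homer1, Inhba, Ntf3, Kcnd2 and Dcx). The members and lists were chosen with earlier results of these data known. Gene positions are from GENCODE M21. Some items are not reported here.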

Additional observations from a re-analysis of the deposited data

Results flagged for a closer look

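Pde3a, a phosphodiesterase gene called higher in GCmat2 than in GCmat1, had differences of opposite sign in the 2 libraries, of which that in w4 shows no direction. The difference between GCmat2 and GCmat1 was 4.36 CPM in w8, on 5 UMIs in GCmat2, and -0.555 in w4, where GCmat2 had 0 UMIs and GCmat1 2. A count of 0 there was taken to allow up to 6.63 CPM, above the level in GCmat1. The difference between the libraries was not tested.

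Nuclei that the deposited table gives no cluster carried Sorcs3 more often than GCmat1. At least 2 Sorcs3 UMIs were found in 41.2% (38.8 to 43.6) of the 1628 such nuclei of w4 and in 16.0% (11.9 to 21) of the 268 of w8. In GCmat1 the share was 2.98% and 5.06%, and in GCmat2 it was 65.0% and 79.9%. The median depth of the w4 nuclei was 8943 UMIs, beside 8613 in GCmat1.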

How the results depend on the processing

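Against GCmat1 the number of called genes (986) was 465 with nuclei thinned to 2000 UMIs, 421 among male nuclei alone (GCmat2 of w8), 405 among female nuclei alone (GCmat2 of w4) and 115 by the deposited log2 values, and lay between 412 (without w8) and 567 (without w4) with a library left out. It stayed within 1.5 times with no library term (671), 6 sums (1089), RLE factors (985), DESeq2 (748), no filter (1070), GCmat1 nuclei with a pseudo-time (994) and a fold of 2 (725). Against GCyoung (563) it was 356 with no library term, 281 thinned, 240 male, 197 female and 90 by the log2 values, and lay between 172 (without w8) and 283 (without w4). Thinning or leaving nuclei out lowers the counts behind a sum and leaving a library out removes its sums, and the part of this in the lost calls was not tested. Of the w4 nuclei of GCyoung, GCmat1 and GCmat2, 2.46% were GCmat2, beside 1.57% of all w4 nuclei.

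Of 96 called genes named by the rule, 32 kept their call in every alternative that gave a value. Over 1016 such values, 801 kept direction and call, 212 lost the call and 3 reversed. The losses given above with single genes are mostly those with a library left out. With DESeq2, 31 of the 96 lost the call and 1 reversed. Among the 31 were Adcy8, Cdh13, Gsg1l, Inpp4b and Sorcs1, and the call of Sv2c was lost with it too. Reversed values on the log2 scale were -1.68 (female nuclei alone) for Pde3a, which was also -3.80 without w8 and 4.51 without w4 (-3.80 to 5.59 over its alternatives), and -0.28 (DESeq2) for Cacng3. GCmat2 had 0 Pde3a UMIs in w4, so both negative values of Pde3a rest on the prior count. Of genes not called, Junb was -0.30 without w4 and 0.45 without w8, Prox1 was 0.086 among female nuclei alone, -0.12 without w4 and 0.065 without w8 (-0.30 to 0.086 over its 11 alternatives), and Slc17a7 went to 0.052 (6 sums). The cause of these was not tested. Fos, with 1 UMI in GCmat2 of w4, 0 in w8 and 0 in GCmat1 of w4, was -1.71 (male nuclei alone), -2.69 (without w4) and 5.83 (without w8), values that rest on the prior count and show no direction. The library term sets clusters of the same library against each other, and the counts without that term are given above.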

Other observations

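The 670 unclustered w4 nuclei with at least 2 Sorcs3 UMIs, a group chosen after its values were seen, are given as values with no test. Barcodes with no cluster mix low-quality nuclei, doublets and w4 nuclei that the study set aside before its final clustering, and which of these the 670 are was not analysed here. The nuclei set aside were mostly male by the study's methods. In the 670, Nrxn3 stood at 3102 CPM, Acvr1c at 426, Bdnf at 363 and Zfp804a at 2860. In GCmat2 of w4 these genes stood at 2904, 153, 248 and 769. The 843 unclustered w4 nuclei with no Sorcs3 UMI were also above GCmat1 of w4 in these genes. They stood at 1003, 157, 182 and 1164, against 526, 37.2, 94.8 and 357 in GCmat1. Calb1 stood at 37.2 in the 670, beside 53.0 in GCmat2 and 141 in GCmat1. Other genes low in GCmat2 were nearer to GCyoung there, with Dsp at 23.5 (2.21 in GCmat2, 38.0 in GCyoung, 84.6 in GCmat1) and Chst9 at 113 (15.5, 112 and 390), while Tdo2 stood at 1.37 (0, 12.6 and 21.9). Kcnip3 stood at 432 (265 in GCmat2), Pappa at 120 (106) and Nptx2 at 36.9 (30.9). Lower there than in GCmat2 were Rgs6 at 89.0 (323), Pcsk1 at 10.02 (90.6), Nell1 at 17.6 (108) and Fam163a at 1.92 (50.8). Of 406 genes called higher in GCmat2 than in GCmat1 (Sorcs3 left out), 71.9% were above GCmat1 of w4 in these nuclei, and of 579 called lower 85.8% were below it. Over all 13512 genes, 31.4% were above and 67.4% below. The calls rest in part on the same GCmat1 counts of w4, and the nuclei were picked by a GCmat2 marker. Part of this agreement is thus built in, and how much was not tested. By the sex genes 534 of the 670 were male and 56 female, which is 90.5% male, beside 11.7% in GCmat2 of w4.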
